A study of Mus musculus with 18 samples.

Results

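Inguinal fat (iWAT) and epididymal fat (eWAT) of mice labelled WT were compared gene by gene, as iWAT minus eWAT. The comparison took every library the labels give as WT fat, 3 of iWAT and 3 of eWAT, which are 6 of the 18 libraries of the study. In the study RNA was sequenced from iWAT, eWAT and liver of mice with and without RIP-Cre. The 6 libraries came from C57BL/6 mice, 12 weeks old, with a floxed Bckdha gene and no Cre (Bckdhaf/f, labelled WT), so both depots carried the floxed allele. The 6 fat libraries of Bckdhaf/f;RIP-Cre mice (labelled KO), of the same strain and age, served as other samples of the same depot contrast. By its usual meaning RIP-Cre drives the recombinase from a rat insulin promoter, in beta cells of the pancreas and in part of the brain. Whether the 3 libraries of a group are 3 animals is not stated in the labels, and the p-values therefore reflect the spread between libraries, which may be technical.

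Inguinal fat is a subcutaneous depot that surrounds a lymph node and lies against the skin and the muscle of the hind limb. Epididymal fat is a visceral depot, covered by mesothelium and attached to the epididymis and testis. Their adipocyte precursors arise from different mesoderm and keep separate sets of developmental transcription factors in the adult. Inguinal fat is also known for beige adipocytes, which burn fuel through uncoupling protein 1 after cold or adrenergic stimulation, while epididymal fat seldom forms them.

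Total expected counts ran from 16796147 to 23370424 in the eWAT libraries and from 18430372 to 27462097 in the iWAT libraries. All levels below are CPM (counts scaled to a common library size) after TMM scaling over the 6 libraries of a genotype unless stated otherwise, with the SD over n = 3 libraries where a mean is given.

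The libraries differed in which tissues they held. Gpx5, an antioxidant enzyme of the caput epididymis, stood at 40943 CPM in eWAT replicate 2 and at 27.1 and 0 CPM in eWAT replicates 1 and 3. The 26 epididymal genes together made up 84876 CPM of unscaled library totals in eWAT replicate 2 and at most 72.7 CPM in the other 5 libraries. Adipoq, which encodes the adipocyte hormone adiponectin, stood at 16.0 CPM in that library and at 2718 and 3634 CPM in eWAT replicates 1 and 3. The library labelled eWAT replicate 2 thus lacked the level of the defining adipocyte gene that the other fat libraries had, and counts over gene lists are given with and without it. At a fixed scaling, a gene whose depots do not overlap with the 6 libraries cannot overlap when 1 of them is left out. The counts without eWAT replicate 2 used a new scaling, under which a gene can come to overlap. Single genes are given with all 6 libraries unless stated. Its Tcf21 level, 14.0 CPM, was the highest of the 6 libraries, and it had no read of Tbx15. Male germ cell genes summed to 182 CPM in it and to at most 22.8 CPM in the other 5.

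iWAT replicate 2 differed from the other iWAT libraries in its lymphoid and muscle transcripts. The 10 B cell genes summed to 7.94 CPM in it, to 2203 and 891 CPM in iWAT replicates 1 and 3, and to 3.85 to 7.36 CPM in eWAT. The 20 skeletal muscle genes summed to 718 CPM in iWAT replicate 2 and to 14.5 to 41.7 CPM in the other 5 libraries. Its Tbx15 level was the highest of the 6 libraries and it had no read of Tcf21, so the identity genes followed its label. In eWAT replicate 3 mitochondrial transcripts took 15.5% of the counts, against 3.35% to 5.97% elsewhere among the 6.

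**Figure D1:**
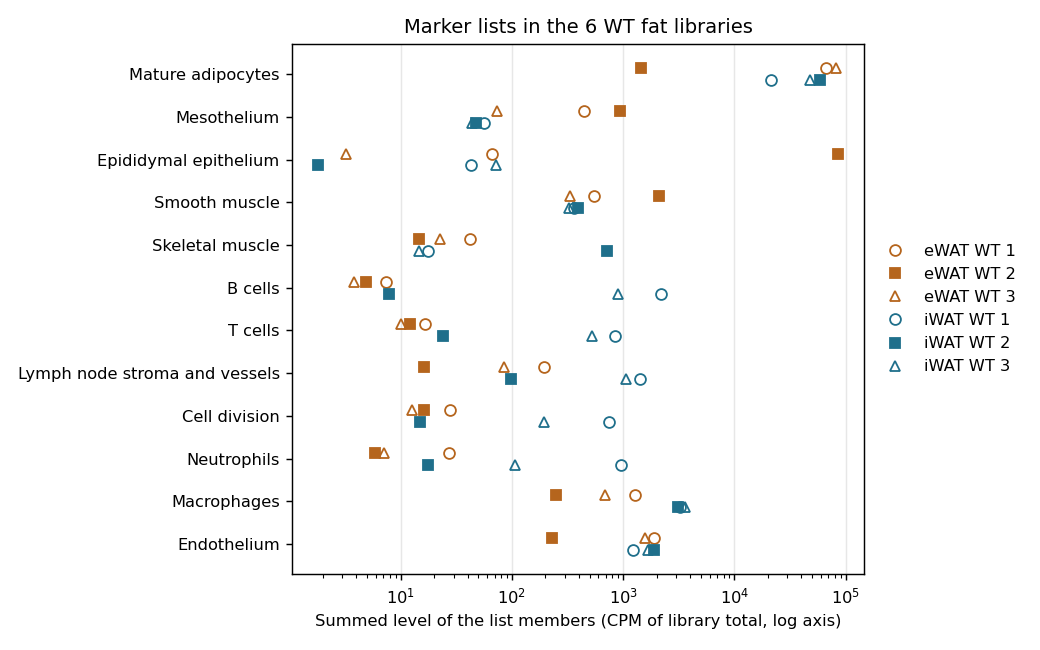
Summed level of 12 marker lists in each of the 6 WT fat libraries, in CPM of the unscaled library total on a log axis; each symbol is 1 library, brown for eWAT and blue for iWAT, with replicate 2 filled. eWAT replicate 2 stands apart in adipocyte, epididymal, smooth muscle and endothelial genes, and iWAT replicate 2 in B cell, T cell and skeletal muscle genes.

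Across the 14006 genes tested in all 6 libraries, edgeR's quasi-likelihood test called 0 genes (0%) at an adjusted p of 0.05. The smallest adjusted p was 0.144, and 2043 genes had an unadjusted p under 0.05 in edgeR. Without eWAT replicate 2 edgeR tested 14480 genes and again called 0 (0%), with 2394 at an unadjusted p under 0.05 and a smallest adjusted p of 0.136. Other tools gave other counts on the 6 libraries. DESeq2 called 1166 genes, 764 of them higher in iWAT, limma-voom called 0, and limma on log2(FPKM + 1) called 2 with a minimum mean FPKM and 0 without it. In the 5 libraries DESeq2 called 1354 genes and limma-voom 0.

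The count changed with 1 iWAT library. Leaving out iWAT replicate 2 gave 92 edgeR calls, all 92 higher in iWAT. Leaving out eWAT replicate 2 as well gave 1177, of which 1025 were higher in iWAT. No other single WT library changed the count from 0. Because no gene passed edgeR with the labelled groups, the genes below are described by their level in each library and by whether the depots overlap.

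In all, the depots did not overlap for 21.3% of the genes tested. Of the genes, 11.2% were higher in every iWAT library than in every eWAT library, and 10.1% were lower in every iWAT library. Without eWAT replicate 2 these shares were 19.3% and 19.6%, over fewer libraries. In the KO libraries edgeR called 1010 of 14386 genes (7.02%), 654 higher in iWAT (4.55%) and 356 higher in eWAT (2.47%). That KO count also depended on single libraries. It was 173 without eWAT KO replicate 1, 2436 without eWAT KO replicate 2, 0 without eWAT KO replicate 3, 2148 without iWAT KO replicate 1, 1 without iWAT KO replicate 2 and 0 without iWAT KO replicate 3. KO libraries also held other tissues. The epididymal genes summed to 1975 and 2040 CPM in eWAT KO replicates 1 and 3, and the B cell genes to 604 to 2261 CPM in iWAT KO. Smooth muscle genes summed to 5712, 481 and 5069 CPM of unscaled totals in eWAT KO, against 2082 CPM in eWAT WT replicate 2. Male germ cell genes summed to 1479 CPM in eWAT KO replicate 1.

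Of the 1551 genes that did not overlap with iWAT higher in WT and were tested in KO, 598 did not overlap the same way in KO and 41 the opposite way. These 598 were 38.6% of the WT genes and 24.4% of the KO genes of that direction. With eWAT higher, 473 of 1393 were shared, 34.0% of the WT and 21.7% of the KO genes, and 9 went the opposite way. Over all genes tested in KO, 17% were higher in every iWAT library and 15.1% in every eWAT library. The difference between the depot effects of WT and KO, an interaction test added after seeing the data, called 0 of 15455 genes in edgeR. In that edgeR test 739 genes had an unadjusted p under 0.05, and the smallest adjusted p was 0.969. Repeated without eWAT WT replicate 2 it called 0 of 15784 genes in edgeR, with 1246 at an unadjusted p under 0.05 and a smallest adjusted p of 0.557.

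**Figure D2:**
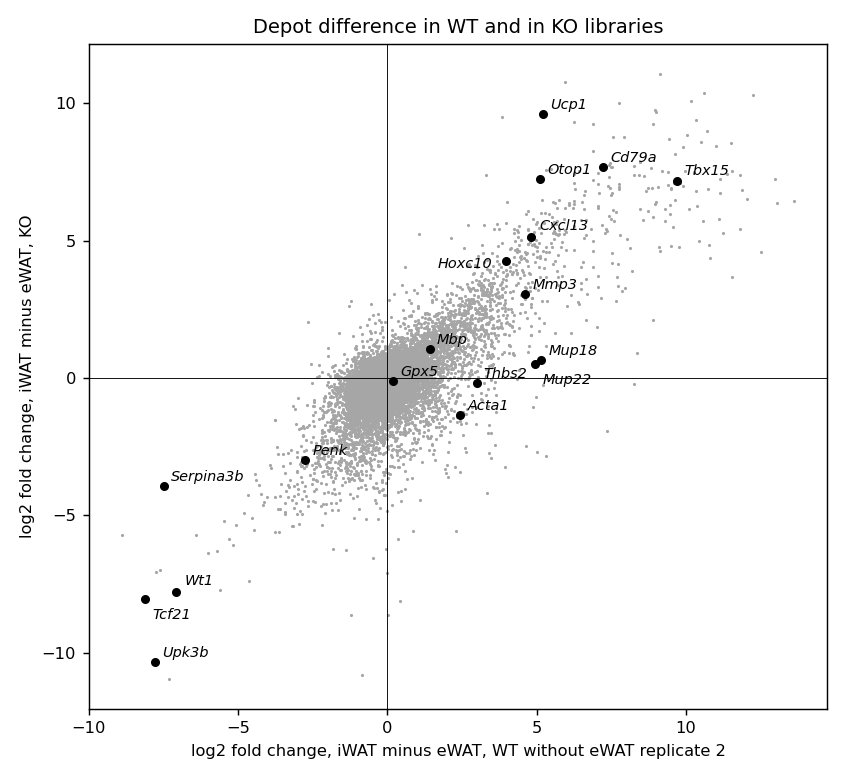
Log2 fold change of iWAT against eWAT for each gene tested in both genotypes (grey points), in WT without eWAT replicate 2 on the x axis and in KO on the y axis; a selection of the named genes is in black. Tbx15 lies at 9.71 and 7.18, Mup18 at 5.16 and 0.66, and fitted values of genes with 3 or fewer reads in a depot depend on the prior count.

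Some of the transcription factors that mark the depots did not overlap between them. Tbx15, a T-box factor of the body wall and of subcutaneous fat, was read only 1 time in the 3 eWAT libraries and stood at 16.0, 36.3 and 24.8 CPM in the 3 iWAT libraries. Tcf21, a basic helix-loop-helix factor of visceral mesoderm, did the reverse, at 8.40, 14.0 and 3.25 CPM in eWAT and at 0.0501, 0 and 0 CPM in iWAT. Shox2, a homeobox factor of limb and subcutaneous fat, stood at 0.566, 0.445 and 1.76 CPM in eWAT and at 8.86, 21 and 17 CPM in iWAT. None of these 3 overlapped between the depots in WT or in KO.

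Promoters of 4 such factors are shown. Tcf21 and Shox2 were taken because they go with opposite depots, and Hoxa5 and Hoxa9, of a single Hox cluster, because they did too. The sequences are from RefSeq (GRCm38.p6), 250 bases before to 50 after the start, 5′ to 3′ on the gene's strand, and all 4 genes lie on the minus strand. They cover chr10:22820094-22820393 for Tcf21, chr3:66981722-66982021 for Shox2, chr6:52204538-52204837 for Hoxa5 and chr6:52227321-52227620 for Hoxa9. Capitals mark matches on either strand of the E-box CAGCTG, of TATAAA and of CCAAT, and no matches of these motifs overlapped.
Tcf21: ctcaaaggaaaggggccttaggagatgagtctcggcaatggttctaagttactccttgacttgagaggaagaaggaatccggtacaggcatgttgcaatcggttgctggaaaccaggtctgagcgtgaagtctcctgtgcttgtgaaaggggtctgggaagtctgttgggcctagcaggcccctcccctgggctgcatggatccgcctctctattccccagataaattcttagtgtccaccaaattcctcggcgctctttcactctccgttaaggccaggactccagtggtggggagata
Shox2: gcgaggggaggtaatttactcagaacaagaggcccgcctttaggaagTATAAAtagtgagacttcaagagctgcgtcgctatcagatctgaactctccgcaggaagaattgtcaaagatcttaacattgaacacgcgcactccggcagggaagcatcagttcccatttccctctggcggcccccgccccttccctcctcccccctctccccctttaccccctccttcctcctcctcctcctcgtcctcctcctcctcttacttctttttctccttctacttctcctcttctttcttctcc
Hoxa5: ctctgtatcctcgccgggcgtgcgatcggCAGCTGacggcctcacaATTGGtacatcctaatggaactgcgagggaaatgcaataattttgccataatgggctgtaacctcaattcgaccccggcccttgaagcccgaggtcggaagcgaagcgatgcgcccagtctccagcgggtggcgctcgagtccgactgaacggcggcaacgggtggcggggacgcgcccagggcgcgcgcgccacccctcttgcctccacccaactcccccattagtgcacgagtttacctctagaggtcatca
Hoxa9: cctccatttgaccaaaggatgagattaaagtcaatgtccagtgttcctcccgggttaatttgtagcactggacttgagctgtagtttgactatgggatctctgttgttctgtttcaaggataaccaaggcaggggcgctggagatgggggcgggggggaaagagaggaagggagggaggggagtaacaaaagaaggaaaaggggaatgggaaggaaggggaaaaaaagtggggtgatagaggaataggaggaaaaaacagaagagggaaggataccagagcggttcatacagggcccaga
TATAAA was found 1 time, in Shox2, and in 13.6% of the 32851 promoters of the same length. CAGCTG and CCAAT were each found 1 time, in Hoxa5, and in 16.3% and 37.4% of all promoters. The windows held 8 CpG pairs in Tcf21, 11 in Shox2, 29 in Hoxa5 and 4 in Hoxa9, against a median of 7. These matches are a description of the letters only.

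Counted over the groups, the 1 Tbx15 read in eWAT stood against 1812 reads in iWAT, a ratio scaled for library size of 1550 with a 95% counting interval from 277 to 61100. For Tcf21 1 read in iWAT stood against 491 in eWAT, a ratio of 575 (interval 103 to 22800). These intervals cover counting error only. Both ratios were lower without eWAT replicate 2, at 1060 and 408.

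Tbx15 (chromosome 3, 99240381 to 99354259) had the lowest adjusted p of the 6-library edgeR test together with Mup18, at 0.144 for both, and did not pass. In the KO libraries Tbx15 passed edgeR with a log2 fold change of 7.18 ± 0.46 SE (adjusted p = 0.00609). Tcf21 (chromosome 10, 22817281 to 22820174) passed there too (edgeR adjusted p = 0.015), and so did Shox2 (log2 fold change 5.43 ± 0.57, edgeR adjusted p = 0.0113). The KO eWAT levels of Tcf21 were 20.7, 6.5 and 14 CPM, lowest in replicate 2, the KO eWAT library with the fewest epididymal transcripts. How far epididymal tissue added to the Tcf21 levels was not tested.

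**Figure D3:**
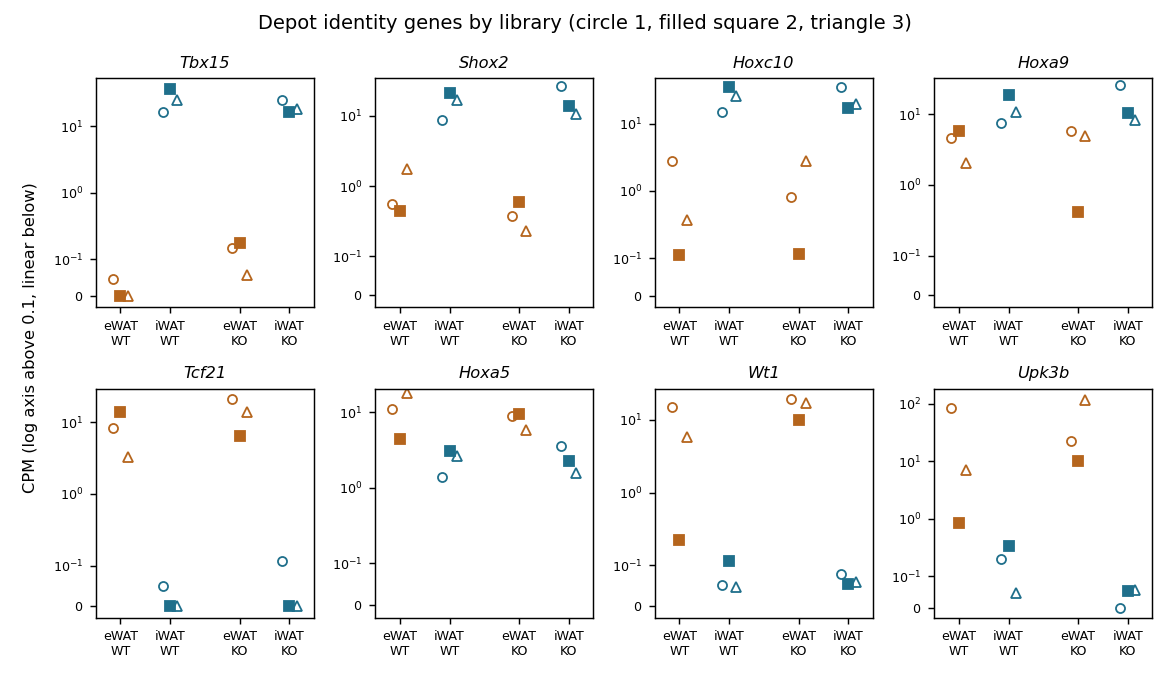
Level of 8 depot identity genes in each of the 12 fat libraries, in CPM on an axis that is log above 0.1 and linear below; brown is eWAT, blue is iWAT, and replicate 2 is filled. Tbx15, Shox2, Hoxc10 and Hoxa9 lie higher in every iWAT library of a genotype, and Tcf21, Hoxa5, Wt1 and Upk3b lie higher in every eWAT library, with Wt1 at 0.222 CPM in eWAT WT replicate 2.

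Of the 15 subcutaneous factors listed, 13 were tested, and 5 of them (Tbx15, Shox2, Hoxc10, En1 and Meox1) were higher in every iWAT library, against 11.2% of all genes. Higher in every eWAT library were 0 (10.1% of all genes). Without eWAT replicate 2 these were 7 and 2 of 13, against 19.3% and 19.6%. A member near 0 in a depot enters the test only through the other depot, so counts over tested members are descriptions. Hoxc10 stood at 2.74, 0.111 and 0.373 CPM in eWAT and at 15, 34.5 and 25.3 CPM in iWAT. En1, a homeobox factor of the ventral limb and dermis, was near 0 in eWAT and at 1.19, 4.63 and 2.23 CPM of unscaled totals in iWAT. In KO Tbx15, Shox2, Hoxc10 and En1 passed edgeR, all higher in iWAT, against 4.55% of all genes. Of the 13 factors tested in KO, 3 had a negative log2 fold change, and 1 was higher in every eWAT library (15.1% of all genes).

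Irx1, another homeobox factor of the subcutaneous list, showed how eWAT replicate 2 bears on a depot gene. It stood at 0.142, 7.17 and 0.0533 CPM in eWAT and at 2.65, 4.64 and 2.86 CPM in iWAT. The log2 fold change was 0.47 ± 1.55 SE with the 6 libraries and 5.01 ± 0.79 without eWAT replicate 2 (edgeR adjusted p = 0.921 and 0.3). In the KO eWAT libraries with abundant epididymal transcripts, replicates 1 and 3, Irx1 stood at 32.0 and 42.4 CPM, and it had no read in replicate 2. Of the 15 visceral factors 7 were tested with the 6 libraries. Tcf21 and Nr2f2 were higher in every eWAT library and Tbx18 in every iWAT library, against 10.1% and 11.2% of all genes. Without eWAT replicate 2 these counts were 5 and 1 of 9 tested, against 19.6% and 19.3%. Nr2f2, an orphan nuclear receptor, differed by little, at 44.1 ± 2.06 CPM in eWAT and 30.1 ± 2.58 in iWAT.

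Hox genes, which set position along the body axis, mostly had lower levels in iWAT. Of 39 Hox genes 28 were tested, and 4 had a positive log2 fold change with the 6 libraries, namely Hoxa9, Hoxa10, Hoxc9 and Hoxc10. Of these 4, Hoxa9, Hoxa10 and Hoxc10 were higher in every iWAT library. The 14 Hox genes that were higher in every eWAT library (10.1% of all genes) came from groups 2 to 9, and in the HoxA cluster they were Hoxa3, Hoxa4, Hoxa5 and Hoxa6. The median log2 fold change of the 28 was -1.38, against -0.07 over all genes, and -1.05 without eWAT replicate 2.

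Hoxa5, of the same cluster as Hoxa9 but not next to it, stood at 11.1, 4.34 and 17.7 CPM in eWAT and at 1.40, 3.05 and 2.58 CPM in iWAT. Hoxa9 stood at 4.58, 5.78 and 2.02 CPM in eWAT and at 7.41, 18.4 and 10.6 CPM in iWAT. The end coordinates of the 2 promoter windows shown above differ by 22783 bases. Hoxa5 was lower in every iWAT library and Hoxa9 higher, in WT and in KO, with no overlap in either genotype. Hoxa5 had a log2 fold change of -2.23 ± 0.63 SE and Hoxa9 of 1.55 ± 0.55 (edgeR adjusted p = 0.304 and 0.315), and neither passed in KO (0.0647 and 0.202).

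In the HoxC cluster Hoxc4 stood at 13.1, 3.78 and 17.2 CPM in eWAT and at 1.60, 4.41 and 3.75 CPM in iWAT, and passed in KO (log2 fold change -2.47 ± 0.31, edgeR adjusted p = 0.0139). Hoxc8 stood at 57.2, 18 and 80.7 CPM in eWAT and at 9.46, 25.8 and 19.2 CPM in iWAT. Both overlapped between the depots only through eWAT replicate 2. Several HoxB and HoxD genes were high in that library alone among the 6. Hoxd8 stood at 266 CPM of unscaled totals in it and at 34.2 and 29.7 CPM in the other eWAT libraries, and Hoxb8 at 184 against 5.46 and 6.38 CPM. Hoxb8 was also higher in eWAT KO replicates 1 and 3, at 34.9 and 34.4 CPM, than in replicate 2, at 3.06 CPM. The part of epididymal tissue in these levels was not tested beyond leaving out the library.

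**Figure D4:**
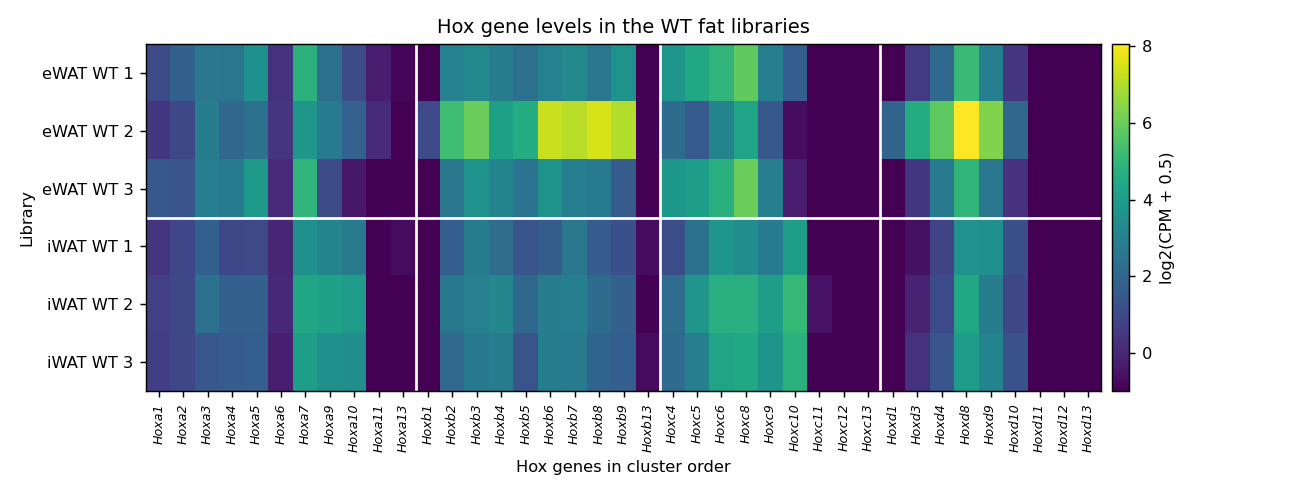
Level of 39 Hox genes in cluster order (columns) in the 6 WT fat libraries (rows), as log2(CPM + 0.5) of unscaled totals, with white lines between clusters and depots. Hoxa9, Hoxa10 and Hoxc10 are brighter in every iWAT library, while Hoxc9 overlaps between the depots. Hoxa5 and Hoxc8 are brighter in eWAT replicates 1 and 3, and the HoxB and HoxD genes in eWAT replicate 2.

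The mesothelium, the sheet of cells that covers visceral fat, had its genes in eWAT. Wt1, a zinc finger factor of mesothelium and visceral fat precursors, stood at 15.3, 0.222 and 5.91 CPM in eWAT and at 0.0501, 0.113 and 0.0468 CPM in iWAT. Upk3b, a uroplakin of mesothelial cells, stood at 84.0, 0.834 and 7.03 CPM in eWAT and at 0.200, 0.339 and 0.0468 CPM in iWAT. Msln, which encodes mesothelin, stood at 26.1, 1.83 and 2.34 CPM in eWAT and at 0.150, 0.302 and 0.187 CPM in iWAT. For all 3 genes eWAT replicate 1 was the highest library and no iWAT library reached any eWAT library. In a bulk sample fewer cells of a type and less RNA per cell cannot be told apart.

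Of the 14 mesothelial genes, 13 were tested without eWAT replicate 2. Their median log2 fold change was -3.32, against -0.00353 over all genes, and 9 of the 13 did not overlap, all higher in eWAT (19.6% of all genes). With eWAT replicate 1 also left out, the median was -1.13. In KO 7 of 14 passed edgeR, all higher in eWAT, against 2.47% of all genes. Among them were Wt1 (log2 fold change -7.80 ± 0.50 SE, edgeR adjusted p = 0.00609) and Msln (-6.38 ± 1.42, edgeR adjusted p = 0.0478). The keratins of the list, which other epithelia also express, followed the epididymal library instead. Krt18 stood at 396 CPM in eWAT replicate 2 and at 29.0 and 1.92 CPM in the other eWAT libraries, and Epcam, an epithelial adhesion gene, at 369 CPM against 27.2 and 0.0533 CPM.

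Genes of secreted signals differed one by one. Penk, which encodes the opioid precursor proenkephalin, stood at 49.0, 79.9 and 42.6 CPM in eWAT and at 4.61, 8.48 and 7.35 CPM in iWAT. The means were 57.2 ± 20.0 and 6.81 ± 1.99 CPM, a log2 fold change of -3.07 ± 0.39 SE (edgeR adjusted p = 0.304 with the 6 libraries and 0.217 without eWAT replicate 2). All 3 eWAT libraries lay above all 3 iWAT libraries, eWAT replicate 2 included. In KO Penk passed, at -2.99 ± 0.55 (edgeR adjusted p = 0.0337). In eWAT it was highest in the libraries with abundant epididymal transcripts, WT replicate 2 and KO replicates 1 and 3. The KO eWAT levels were 92.2, 24.8 and 66.7 CPM. The part of epididymal tissue in these levels was not tested.

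Sfrp1, a secreted WNT inhibitor, stood at 69.2, 67.4 and 25.9 CPM in eWAT and at 8.06, 11.1 and 10.1 CPM in iWAT, and passed in KO (log2 fold change -3.13 ± 0.55, edgeR adjusted p = 0.0308). Its KO eWAT levels were 110, 23.1 and 77.7 CPM, lowest in replicate 2, the KO eWAT library with the fewest epididymal transcripts. Rspo1, which enhances WNT signalling, stood at 25.7, 9.51 and 3.41 CPM in eWAT and at 1.55 to 2.2 CPM in iWAT. Among ligands, Wnt2 went the other way, at 0.283, 1.06 and 0.107 CPM in eWAT and at 2.65, 9.99 and 4.50 CPM in iWAT. Wnt11 was also higher in iWAT, at 6.21 to 9.88 CPM against 0.278 to 2.77 CPM. Of 16 WNT ligands and inhibitors tested, 3 were higher in every iWAT library and 5 in every eWAT library, against 11.2% and 10.1% of all genes. With eWAT replicate 2 left out these were 4 and 5 of 17, against 19.3% and 19.6%. In KO 1 of 17 passed edgeR, higher in eWAT. Over all genes 7.02% were called there in either direction and 2.47% higher in eWAT.

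Bmp4, a BMP ligand that favours adipocyte commitment, stood at 4.78 to 11.7 CPM in eWAT and at 1.85 to 2.62 CPM in iWAT, without overlap (log2 fold change -1.91 ± 0.47, edgeR adjusted p = 0.304). Of 18 BMP and TGF-beta ligands and inhibitors tested, 3 were higher in every iWAT library and 2 in every eWAT library, close to the 11.2% and 10.1% of all genes, and with eWAT replicate 2 left out 3 and 5 (19.3% and 19.6% of all genes). In KO 4 of 19 passed edgeR, all higher in eWAT, against 2.47% of all genes.

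Aldh1a2, which makes retinoic acid, stood at 10.7, 17.8 and 4.63 CPM in eWAT and at 1, 1.85 and 3.23 CPM in iWAT, and passed in KO (log2 fold change -2.54 ± 0.29, edgeR adjusted p = 0.012). Its KO eWAT levels were 21.8, 14.3 and 16.1 CPM, lowest in replicate 2, the KO eWAT library with the fewest epididymal transcripts. Igf2, a growth factor, stood at 27.9 and 25.8 CPM in eWAT replicates 1 and 3, at 4.17 CPM in replicate 2 and at 4.36 to 11.9 CPM in iWAT. Its depots did not overlap once eWAT replicate 2 was left out, and it passed in KO (-1.84 ± 0.33, edgeR adjusted p = 0.0315). Igfbp3, a binding protein of the same factors, was higher in iWAT, at 107, 139 and 200 CPM against 40.4, 37.6 and 57.8 CPM. In KO its levels overlapped, at 112 ± 8.89 CPM in iWAT and 135 ± 51.8 in eWAT. Npr3, the clearance receptor for natriuretic peptides, stood at 140, 4.39 and 36.1 CPM in eWAT and at 9.55 to 21.4 CPM in iWAT, and passed in KO with eWAT higher (-1.79 ± 0.39, edgeR adjusted p = 0.0467).

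Several thermogenic genes had higher levels in iWAT, and others did not. Ucp1, the uncoupling protein, stood at 2.03, 0.167 and 0.320 CPM in eWAT and at 98.4, 9.57 and 26.7 CPM in iWAT. Otop1, a proton channel gene enriched in brown and beige fat, stood at 0.330, 0 and 0.213 CPM in eWAT and at 15.5, 6.03 and 7.73 CPM in iWAT. Tmem26, a surface marker of beige adipocytes, stood at 0.708, 0.723 and 0.160 CPM in eWAT and at 22.9, 11.2 and 10.8 CPM in iWAT. The iWAT libraries lay above every eWAT library for each, and iWAT replicate 1 was the highest.

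Cidea, a lipid droplet protein of brown and beige fat, stood at 7.22, 1.17 and 36.9 CPM in eWAT and at 98.8, 57.6 and 133 CPM in iWAT. Cpt1b, the muscle form of the carrier that admits fatty acids to mitochondria, stood at 0.222 to 1.49 CPM in eWAT and at 40.5, 8.48 and 14.1 CPM in iWAT. In KO the depots overlapped for Cpt1b, with 15.9 CPM in eWAT KO replicate 1 (log2 fold change 1.59 ± 1.25, edgeR adjusted p = 0.437). iWAT replicate 2, which held the skeletal muscle transcripts, was the lowest iWAT library for Ucp1, Cidea and Cpt1b.

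Of 19 thermogenic genes tested, 13 had a positive log2 fold change and 6 a negative one. In every iWAT library 6 were higher and in every eWAT library 0, against 11.2% and 10.1% of all genes. The median log2 fold change was 0.73 against -0.07 over all genes, and 2.17 when eWAT replicate 3 was left out. With eWAT replicate 2 left out the median was 0.74, 7 of the 19 were negative, 7 were higher in every iWAT library and 2 in every eWAT library (19.3% and 19.6% of all genes). Those 2 were Dio2, the deiodinase that activates thyroid hormone, at -1.23 and Ppargc1a, a coactivator of mitochondrial genes, at -0.93 on the log2 scale. In KO 6 of 18 passed edgeR, all higher in iWAT, against 4.55% of all genes. Otop1 had there a log2 fold change of 7.23 ± 1.05 and Cidea of 5.09 ± 0.60 (edgeR adjusted p = 0.0207 and 0.013). Ucp1 had 2 reads in KO eWAT against 1963 in KO iWAT, a ratio of 978 with a counting interval from 270 to 8080. Ucp1 passed in KO (edgeR adjusted p = 0.0113).

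**Figure D5:**
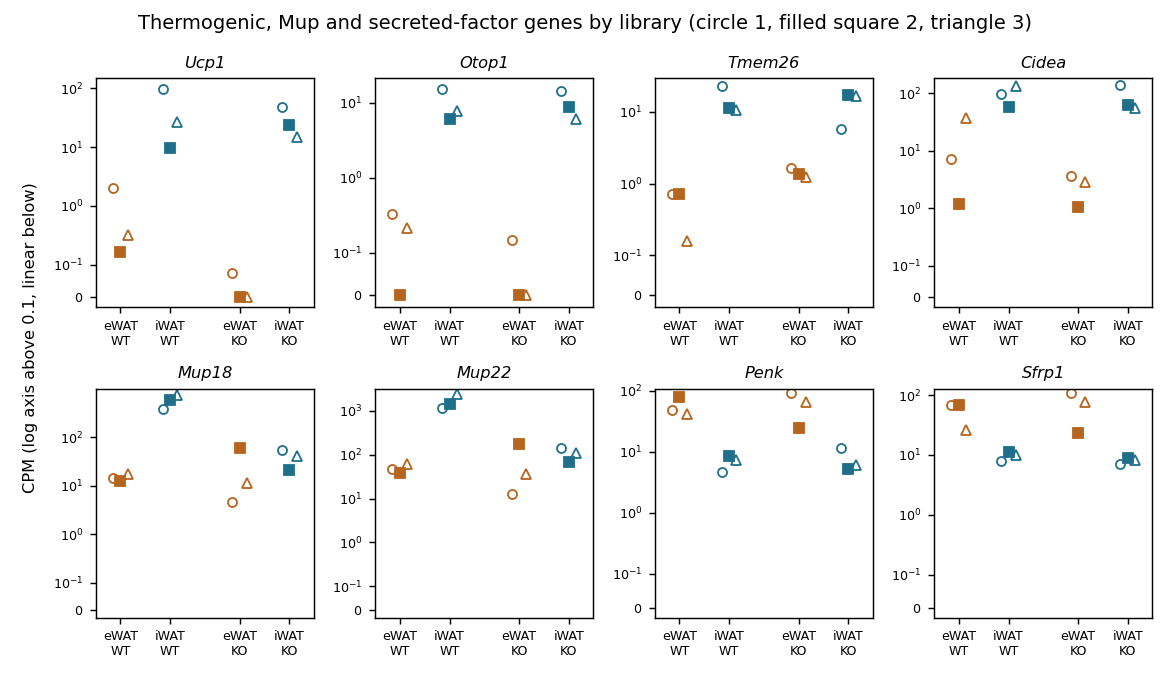
Level of 4 thermogenic genes (top), 2 Mup genes, Penk and Sfrp1 (bottom) in each of the 12 fat libraries, in CPM on an axis that is log above 0.1 and linear below; brown is eWAT, blue is iWAT, and replicate 2 is filled. The thermogenic genes are higher in iWAT in both genotypes, while Mup18 is at 385 to 770 CPM in iWAT WT and at 21.6 to 54.4 CPM in iWAT KO.

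Major urinary protein genes had some of the lowest p in the 6-library test and did not pass. Mup18, whose product is a lipocalin that binds small hydrophobic molecules, stood at 14.7, 12.4 and 17.7 CPM in eWAT and at 385, 587 and 770 CPM in iWAT. The means were 14.9 ± 2.65 and 581 ± 193 CPM, a log2 fold change of 5.28 ± 0.43 SE (edgeR adjusted p = 0.144). Mup22 stood at 46.5, 39.2 and 61.1 CPM in eWAT and at 1166, 1467 and 2429 CPM in iWAT (5.11 ± 0.52, edgeR adjusted p = 0.246). The depots lay far apart for both genes, and eWAT replicate 2 was the lowest eWAT library for each. The Mup genes of chromosome 4 are near-identical copies, so how reads were shared among them is uncertain.

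The same depot difference was not seen in the KO libraries. Mup18 stood there at 4.59, 59.3 and 11.3 CPM in eWAT and at 54.4, 21.6 and 42.2 CPM in iWAT, with overlap (log2 fold change 0.66 ± 0.88, edgeR adjusted p = 0.662). The difference between the WT and KO depot effects was 4.63 for Mup18 and 4.61 for Mup22 on the log2 scale and did not pass (edgeR adjusted p = 0.969 for both). Alb, the hepatocyte gene for serum albumin, stood at 129, 153 and 83.4 CPM of unscaled totals in eWAT and at 138, 104 and 198 CPM in iWAT, with overlap. The source of the Mup transcripts in fat was not tested.

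Other genes of lowest p were also described by their levels, and none passed in WT. Mmp3, a matrix metalloproteinase, stood at 3.02, 0.222 and 3.78 CPM in eWAT and at 72.0, 119 and 60.3 CPM in iWAT, and it passed in KO (log2 fold change 3.05 ± 0.21, edgeR adjusted p = 0.00609). Oas3, an interferon-induced sensor of double-stranded RNA, stood at 1.33 to 2.78 CPM in eWAT and at 12.6 to 17.7 CPM in iWAT, with 2.97 ± 0.42 in WT and 2.87 ± 0.72 in KO (edgeR adjusted p = 0.304 and 0.0605). Slc37a2, a sugar-phosphate transporter gene of macrophages, stood at 5.23 to 10.5 CPM in eWAT and at 38.6 to 42.5 CPM in iWAT, but overlapped in KO, where its levels were 30.2 ± 10.7 and 34.8 ± 13.5 CPM. Arhgap19, which encodes a GTPase activating protein, stood at 9.39 to 17.8 CPM in eWAT and at 55.0 to 78.1 CPM in iWAT. In KO its depots overlapped (log2 fold change 1.13 ± 0.41, edgeR adjusted p = 0.135).

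On the eWAT side, Syt2, which encodes a calcium sensor of vesicle release, stood at 3.78, 12.0 and 2.34 CPM in eWAT and at no more than 0.113 CPM in iWAT. Its KO eWAT levels were 5.22, 0.879 and 2.72 CPM, lowest in replicate 2, the KO eWAT library with the fewest epididymal transcripts. Serpina3b, a serine protease inhibitor gene, stood at 33.6 and 58.4 CPM in eWAT replicates 1 and 3, at 0.111 CPM in replicate 2 and at 0.150 to 0.421 CPM in iWAT. Its log2 fold change without eWAT replicate 2 was -7.49 ± 0.55 SE (edgeR adjusted p = 0.136) and it passed in KO (-3.94 ± 0.68, edgeR adjusted p = 0.0286), where eWAT levels were 1.22 to 2.21 CPM. Trub2, a pseudouridine synthase of mitochondria, stood at 61.1 and 65.7 CPM in those eWAT libraries and at 19.3 CPM in eWAT replicate 2, within the iWAT range of 15.8 to 20.0 CPM.

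Lymphoid transcripts split the iWAT libraries. Cd79a, part of the B cell receptor, stood at 0.334 to 1.42 CPM in eWAT and at 424, 1.17 and 174 CPM in iWAT. Cd4, a co-receptor of helper T cells, stood at 2.60, 0.667 and 0.799 CPM in eWAT and at 148, 5.65 and 101 CPM in iWAT. Glycam1, a mucin of high endothelial venules in lymph nodes, stood at 228 and 135 CPM in iWAT replicates 1 and 3, at 0.302 CPM in iWAT replicate 2 and at 0 to 0.189 CPM in eWAT. iWAT replicate 2 was far below replicates 1 and 3 in these genes. It lay within the eWAT range for Cd79a and above every eWAT library for Cd4 and Glycam1.

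With iWAT replicate 2 in the group, Cd79a had a log2 fold change of 7.64 ± 2.03 SE and did not pass (edgeR adjusted p = 0.304). All 3 KO iWAT libraries held these genes. Of the 10 B cell genes 10 passed edgeR in KO, and of the 11 T cell genes 11, all higher in iWAT, against 4.55% of all genes. Cd79a stood there at 155, 442 and 430 CPM in iWAT against 1.17 to 2.66 CPM in eWAT (7.67 ± 0.63, edgeR adjusted p = 0.00944). Cxcl13, a chemokine that draws B cells into follicles, was an exception in WT, since it was also present in iWAT replicate 2, at 80.8, 44.5 and 114 CPM in iWAT and at 0.389 to 3.36 CPM in eWAT (5.29 ± 0.86, edgeR adjusted p = 0.304). It passed in KO (5.12 ± 0.61, edgeR adjusted p = 0.013).

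iWAT replicate 1 held the most plasma cell, neutrophil and cell division transcripts. Ighg1, an immunoglobulin heavy chain gene, stood at 13954 CPM in it, at 0.829 and 311 CPM in iWAT replicates 2 and 3 and at 0.160 to 8.17 CPM in eWAT. Ngp, a neutrophil granule gene, stood at 238, 0.490 and 24.1 CPM in iWAT, and Rrm2, a subunit of ribonucleotide reductase used in S phase, at 64.1, 1.77 and 18 CPM. In eWAT these 2 genes stood at no more than 4.20 CPM. The 15 cell division genes summed to 741, 14.8 and 193 CPM in iWAT, in the same order as the 10 B cell genes. How far the division genes came from lymphoid cells was not tested.

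Macrophage genes did not follow the lymph node genes. Lyz2, the lysozyme of myeloid cells, stood at 534, 66.4 and 392 CPM in eWAT and at 1936, 1529 and 2001 CPM in iWAT. Cd68, a lysosomal protein of macrophages, stood at 49.1, 24.6 and 33.8 CPM in eWAT and at 116, 138 and 121 CPM in iWAT (log2 fold change 1.80 ± 0.31 SE, edgeR adjusted p = 0.304). Csf1r, the receptor for macrophage colony-stimulating factor, stood at 51.9 to 177 CPM in eWAT and at 360 to 438 CPM in iWAT. iWAT replicate 2, the lowest in lymphoid transcripts, lay in or above the range of the other iWAT libraries for Cd68 and Csf1r, and for Lyz2 it was lower than they were but above every eWAT library.

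All 12 macrophage genes had a positive log2 fold change with and without eWAT replicate 2, with medians of 1.66 and 1.3. With the 6 libraries 7 of the 12 were higher in every iWAT library, against 11.2% of all genes. Without eWAT replicate 2 these were 6 of the 12, against 19.3%. In KO the median was -0.54, and Cd68 stood at 123 ± 39.1 CPM in eWAT and 84.6 ± 21 in iWAT. The difference between the WT and KO effects was 2.36 for Cd68 (edgeR adjusted p = 0.969) and did not pass. Of 17 complement genes, 11 had a positive log2 fold change with the 6 libraries and 10 without eWAT replicate 2. In both cases 8 were higher in every iWAT library (11.2% and 19.3% of all genes), while 0 and then 3 were higher in every eWAT library (10.1% and 19.6%). C1qa, a chain of the C1q that macrophages make, stood at 32.1 to 107 CPM in eWAT and 195 to 292 CPM in iWAT. Cfp, the gene of properdin, stood at 40.9, 2.06 and 35.9 CPM in eWAT and at 133, 124 and 130 CPM in iWAT.

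Genes of the extracellular matrix were high above all in iWAT replicate 2. Col1a1, a chain of type I collagen, stood at 188, 49.1 and 39.1 CPM in eWAT and at 391, 1493 and 313 CPM in iWAT. Mmp2, a gelatinase, stood at 111, 10.1 and 58.3 CPM in eWAT and at 220, 929 and 297 CPM in iWAT. Thbs2, a matricellular thrombospondin, stood at 29.4, 20.8 and 19.7 CPM in eWAT and at 113, 358 and 115 CPM in iWAT. No eWAT library reached an iWAT library for these genes, but iWAT replicate 2 held the largest part of each mean. Of 26 matricellular and remodelling genes tested, 8 were higher in every iWAT library and 0 in every eWAT library, against 11.2% and 10.1% of all genes. The counts were 8 and 1 with eWAT replicate 2 left out (19.3% and 19.6%). In KO 20 of the 26 had a negative log2 fold change (median -0.61). There 1 passed edgeR higher in iWAT and 2 higher in eWAT, against 4.55% and 2.47% of all genes.

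None of Col1a1, Mmp2 and Thbs2 passed edgeR in KO, where Thbs2 stood at 157 ± 18.6 CPM in eWAT and 137 ± 34.4 in iWAT. The difference of the depot effects was 3.27 for Thbs2 and 3.31 for Col1a1 and did not pass (edgeR adjusted p = 0.969 for both). Of 19 collagens 14 had a positive log2 fold change in WT with the 6 libraries and 15 without eWAT replicate 2. In KO 18 of 19 were negative and 5 passed edgeR, all higher in eWAT, against 2.47% of all genes. Col6a5 and Col8a1 had a negative log2 fold change in both genotypes. Col6a5, a chain of type VI collagen, stood at 324, 11.9 and 38.8 CPM in eWAT and at 13.6 to 15.9 CPM in iWAT, and passed in KO (-4.29 ± 0.95, edgeR adjusted p = 0.0473). Its KO eWAT levels were 284, 33.1 and 326 CPM, lowest in replicate 2, the KO eWAT library with the fewest epididymal transcripts.

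Precursor genes were mixed. Cd55, a complement inhibitor carried by interstitial progenitors, stood at 36.2, 5.39 and 35.9 CPM in eWAT and at 113, 63.1 and 108 CPM in iWAT. Thy1, a surface protein of progenitors that T cells also carry, stood at 7.03 to 13.5 CPM in eWAT and at 109, 27.7 and 69.5 CPM in iWAT, lowest in iWAT replicate 2. Of 20 progenitor genes tested, 8 were higher in every iWAT library and 1 in every eWAT library, against 11.2% and 10.1% of all genes, and with eWAT replicate 2 left out 8 and 3 (19.3% and 19.6%). In KO 12 of the 20 had a negative log2 fold change (median -0.25). There 5 were higher in every iWAT library and 6 in every eWAT library, against 17% and 15.1% of all genes. In KO 2 passed edgeR higher in iWAT and 3 higher in eWAT, against 4.55% and 2.47% of all genes.

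Mbp and Prx, myelin genes of Schwann cells, were higher in every iWAT library than in any eWAT library. Mbp, myelin basic protein, stood at 53.6, 11.5 and 44.2 CPM in eWAT and at 93.8, 157 and 142 CPM in iWAT. Prx, the gene of periaxin, stood at 4.86, 4.89 and 1.12 CPM in eWAT and at 5.36, 28.6 and 22.4 CPM in iWAT. The log2 fold changes in WT were 1.84 ± 0.59 SE for Mbp and 2.37 ± 0.82 for Prx (edgeR adjusted p = 0.304 and 0.312). Both passed in KO (edgeR adjusted p = 0.0407 and 0.0481). iWAT replicate 1 was the lowest iWAT library for both genes. Of the 10 Schwann cell genes, 8 had a positive log2 fold change and 2 a negative one, with the 6 libraries and without eWAT replicate 2 alike. With the 6 libraries 4 were higher in every iWAT library (11.2% of all genes), and 6 with eWAT replicate 2 left out (19.3%). In KO 3 of 10 passed edgeR, all higher in iWAT (4.55% of all genes), and Pllp, plasmolipin, went the other way without passing (-2.62, edgeR adjusted p = 0.0973).

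Skeletal muscle genes came from a single library. Acta1, skeletal muscle actin, stood at 162 CPM in iWAT replicate 2 and at 0.901 and 1.97 CPM in iWAT replicates 1 and 3, against 1.39 to 10.3 CPM in eWAT. Myh4, a fast myosin, stood at 125 CPM in iWAT replicate 2 and had no read in the other iWAT libraries. Their depot difference was that library, and without it Acta1 had a log2 fold change of -2.33 in place of 2.92 ± 1.95. Smooth muscle genes were high in the epididymal library, with Actg2, an enteric actin, at 899 CPM in eWAT replicate 2 and at 8.26 and 4.69 CPM in the other eWAT libraries. In KO eWAT Actg2 stood at 296, 0.761 and 297 CPM.

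Epididymal genes gave large fitted differences in the 6-library test, and these went when the library was left out. Gpx5 had a log2 fold change of -9.78 ± 4.67 SE with the 6 libraries and of 0.18 ± 2.28 without eWAT replicate 2 (edgeR adjusted p = 0.389 and 0.971). Low levels of Gpx5 were read in iWAT as well, at 17, 0.113 and 29.5 CPM. Adam7, Spag11b and Lcn5, other genes of the epididymal epithelium, had 3.65, 2.55 and 2.05 CPM in iWAT replicate 1 and 7.91, 3.28 and 5.67 CPM in replicate 3, and at most 0.113 CPM in replicate 2. Of the 18 epididymal genes tested, 18 had a negative log2 fold change with the 6 libraries and 6 without eWAT replicate 2. In the latter the median of 0.18 moved widely with a further library left out, to 5.8 without eWAT replicate 1, -0.82 without eWAT replicate 3 and -0.61 without iWAT replicate 3.

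Genes of mature adipocytes turned on the same library. Adipoq stood at 2718, 16.0 and 3634 CPM in eWAT and at 696, 2224 and 1545 CPM in iWAT. Its log2 fold change was -0.51 ± 1.47 SE with the 6 libraries and -1.10 ± 0.56 without eWAT replicate 2 (edgeR adjusted p = 0.907 and 0.34), and the sign of the former turned with the deposited FPKM. Lpl, lipoprotein lipase, stood at 9182, 60.4 and 17671 CPM in eWAT and at 2056, 6628 and 5157 CPM in iWAT. iWAT replicate 1, which held the most lymphoid transcripts, was the lowest iWAT library for both genes.

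Of the 20 adipocyte genes, 15 had a negative log2 fold change with the 6 libraries and 20 without eWAT replicate 2. Without that library the median was -0.79 and 12 were higher in every eWAT library, against 19.6% of all genes. With the 6 libraries the median was -0.22 and turned to 1.25 on the deposited FPKM, while without eWAT replicate 2 it was -0.65 on FPKM. When iWAT replicate 1 was left out as well, it was -0.41, and in KO it was -0.02. The part of lymphoid and other transcripts in lowering adipocyte genes in iWAT was not tested. Lipid synthesis genes stood in the same way, with 19 of 19 negative without eWAT replicate 2 (median -0.48, and -0.23 with iWAT replicate 1 also left out). In KO 17 of 19 were positive (median 0.92), and 2 of these passed edgeR, against 4.55% of all genes.

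Transcripts of the mitochondrial genome were highest in eWAT replicate 3. mt-Nd4, a complex I subunit, stood at 5086, 2222 and 15346 CPM in eWAT and at 3012, 3490 and 3689 CPM in iWAT. All 13 mitochondrial genes had a negative log2 fold change in WT, with a median of -1.15 with the 6 libraries and -1.57 without eWAT replicate 2. With eWAT replicates 2 and 3 both left out the median was -0.35. In KO 7 of the 13 were negative and 6 positive, with a median of -0.06. Hba-a1, a globin gene of red cells, stood at 2487 and 2544 CPM in eWAT replicates 1 and 3, at 129 CPM in replicate 2 and at 469 to 800 CPM in iWAT. Globin genes are near-identical copies, so the split of reads among them is uncertain.

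Bckdha, the floxed gene (chromosome 7, 25629946 to 25658981), encodes the E1 alpha subunit of the enzyme that commits branched-chain ketoacids to breakdown. It stood at 200, 49.3 and 326 CPM in eWAT and at 114, 213 and 184 CPM in iWAT. The means were 192 ± 139 and 170 ± 50.7 CPM, with overlap (log2 fold change -0.17 ± 0.67 SE, edgeR adjusted p = 0.933), and without eWAT replicate 2 the log2 fold change was -0.64 ± 0.37 (0.377). In KO it was 0.35 ± 0.30 (edgeR adjusted p = 0.481). Acadsb, an acyl-CoA dehydrogenase of the same route, stood at 299, 144 and 473 CPM in eWAT and at 103, 175 and 177 CPM in iWAT. Of 27 genes of branched-chain amino acid breakdown, 22 had a negative log2 fold change with the 6 libraries (median -0.35), and 26 without eWAT replicate 2 (median -0.70). In KO 20 of the 27 had a positive one (median 0.23).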

How the data were processed

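RNA of 6 WT and 6 KO fat libraries was analysed. Trizol RNA was enriched with oligo(dT) beads and sequenced on an Illumina NovaSeq, per the labels' protocols. Whether counting used the strand was not given in the sources used. The submitters' processing notes name mm10 and, without roles, RSEM, StringTie 1.3.1, HISAT2, Bowtie2 2.2.8, fastp 0.18.0, edgeR and DESeq2. The authors deposited an expected count (estimated, 9.08% of values not whole at a tolerance of 0.005 in the 6 WT libraries) and an FPKM value per gene and library. FPKM as deposited, scaled by the authors, entered alternatives only.

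Of 22298 Ensembl identifiers, 22255 matched a GENCODE M21 symbol (GRCm38, the build mm10), which also gave coordinates. Expected counts were rounded. Genes were kept by filterByExpr (minimum count 10, minimum total 15), scaled with TMM and tested with edgeR 4.0.16 (robust quasi-likelihood, R 4.3.3), with Benjamini-Hochberg adjustment over all genes tested and a threshold of 0.05. Standard errors are the absolute log2 fold change over the square root of F. Per-library CPM without eWAT replicate 2 keep the scaling of the 6 libraries, while the test and the overlap counts without it used a new scaling. The test was checked on simulated data. Alternatives were other scalings, no filter, no robust estimation, DESeq2 1.42.0, limma 3.58.1 (voom, and log2 FPKM with pseudocounts of 1 and 0.1), wider fits, a minimum absolute log2 fold change of 1, a replicate block and leaving out each library.

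The comparison, the gene lists and the members named were chosen with earlier results of these data known. Named genes were Bckdha, Tbx15, Tcf21, Adipoq, the 5 of lowest p per direction in each WT test (mean log2 CPM of at least 1, depots not overlapping, no predicted genes), since no gene passed, and up to 4 members of each list. En1, Meox1, Tbx18, Dio2, Ppargc1a, Pllp, Upk3b, Msln, Cd68, Alb, Hoxb8, Hoxd8 and the Hox genes of groups 3 to 10 named beside Hoxc4, Hoxc8, Hoxa5 and Hoxc10 were chosen after their values were seen. A few genes that meet this rule are not reported here. Of 101 named genes with values, 69 had a promoter in the RefSeq table.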

Additional observations from a re-analysis of the deposited data

How the results depend on the processing

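The count of genes called by edgeR in the 6 WT libraries was 0, and became 1166 with DESeq2, 2 with log2(FPKM + 1), 3 with log2(FPKM + 0.1), 1 in a fit of all fat libraries and 1437 in a fit of all tissues, and 0 to 92 with a library left out. Without eWAT replicate 2 it was 0, and became 1354 with DESeq2, 1 with log2(FPKM + 0.1), 7 in a fit of all fat libraries and 74 in a fit of all tissues, and 0 to 1177 with a further library left out, which can leave a lone eWAT library whose spread is taken from iWAT. The KO count of 1010 became 3104 with DESeq2 and 4 with limma-voom, and 0 to 2436 with a library left out. In the fits of all tissues the liver libraries set the spread in part, and the cause of the other changes was not tested.

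The titles share replicate numbers across tissues, but the labels used here do not say that a number marks 1 animal, and the numbers were not used to pair. The deviations of same-numbered libraries correlated at -0.148, -0.282 and -0.0311 over 14006 genes, and no library correlated best with its own number, which does not show whether same-numbered libraries came from 1 animal. With a replicate block the count was 0 in the 6 libraries, 3246 without eWAT replicate 2, where 1 residual degree of freedom remained, and 456 in KO.

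Of 93 named genes with alternatives, 82 kept their direction under all of them. Bckdha (-0.17) turned to 0.15 with limma-voom, 0.27 with log2(FPKM + 1) with or without the filter, 0.28 with log2(FPKM + 0.1), 0.08 with the replicate block, and ran from -0.64 to 0.43 with a library left out (0.05 without iWAT replicate 1). Adipoq (-0.51) turned to 1.34 with limma-voom, 1.40, 1.43 and 1.40 on FPKM, with -1.10 to 0.11 over libraries left out, and Lpl (-0.96) to 0.98, 1.05, 1.08 and 1.05 on the first 4 of these. Irx1 (0.47) turned to -0.12 and -0.11 without eWAT replicate 1 or 3 and reached 5.01 without eWAT replicate 2. Acta1 turned to -1.19 with the block and ran from -2.33 (without iWAT replicate 2) to 3.51, and Atp2a1 from -1.26 to 8.95. Without eWAT replicate 2, Gpx5, Adam7, Spag11b, Lcn5 and Pecam1 turned to 0.18, 0.23, 0.60, 0.61 and -0.09, against values up to -10.6, -10.5, -10.18, -10.14 and 0.78 with other libraries left out. The median of all genes was -0.07 with TMM, -0.13 with upper quartile scaling and 0.11 and 0.14 on filtered FPKM with pseudocounts of 1 and 0.1. Among the lists described, medians over the 6 libraries that turned with log2(FPKM + 1) were those of mature adipocytes (-0.22, then 1.25), lipid synthesis (-0.16, then 0.91) and BMP and TGF-beta signals (-0.24, then 0.12). With 3 libraries a depot and such spread, a missed threshold does not show equal levels.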

Other observations

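With the 6 libraries 6 of 12 endothelial genes had a negative log2 fold change, with a median of 0.021. Without eWAT replicate 2 the 12 had a median log2 fold change of -0.44, 12 of them negative, and on log2(FPKM + 1) of -0.25, 8 of them negative. Pecam1, an adhesion molecule of endothelial cells, stood at 366 and 370 CPM in eWAT replicates 1 and 3 and at 321, 375 and 346 CPM in iWAT, with 33.6 CPM in eWAT replicate 2. Without that library the log2 fold change was -0.09 ± 0.22 SE (edgeR adjusted p = 0.826). Prlr, the prolactin receptor, stood at 42.2, 16.4 and 48.1 CPM in eWAT and at 7.56, 13.3 and 8.62 CPM in iWAT, without overlap (-1.85 ± 0.48, edgeR adjusted p = 0.304). In KO its depots overlapped (-2.16 ± 0.68, edgeR adjusted p = 0.0979). Ntrk3, a neurotrophin receptor gene, stood at 6.80, 7.62 and 4.26 CPM in eWAT and at 15.6, 13.7 and 20.4 CPM in iWAT (1.41 ± 0.35, edgeR adjusted p = 0.304). Egr3, an immediate early factor, stood at 0.944, 0.167 and 0.746 CPM in eWAT and at 27.2, 1.21 and 12.2 CPM in iWAT, and passed in KO (3.35 ± 0.70, edgeR adjusted p = 0.0418). Its KO iWAT levels were 6.64, 32.7 and 24 CPM. In each genotype the iWAT library lowest in Egr3 was also the lowest in B cell and T cell genes. How far Egr3 came from lymphoid cells was not tested.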
